A study of Mus musculus with 23 samples.

Results

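The genes of mitochondrial protein import and of the chaperones that fold imported proteins were followed in fat cell differentiation, in RNA of the mouse line C3H10T1/2. Members were taken by name from the deposited expression table: every symbol beginning with Timm or Tomm, and Samm50, Mtx1, Mtx2, Chchd4, Gfer, Pmpca, Pmpcb, Pam16, Dnajc19, Grpel1, Grpel2, Hspa9, Hspd1 and Hspe1. That rule found 40 of the 24029 genes in the table. It used no measured value itself, but was chosen with earlier results of these data known. It also takes in some genes that are not part of the import machinery, such as Timmdc1, an assembly factor of respiratory complex I, and Tomm6os, the transcript opposite Tomm6.

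The series presents TELP, a way of building sequencing libraries, and compares it with standard library construction in cells before and after adipocyte differentiation. RNA was profiled in 6 libraries with 1 library per group, while the 17 chromatin immunoprecipitation samples among the 23 in the series were not analysed here. C3H10T1/2 is an immortal line of strain C3H that the labels call mesenchymal stem cells, and both days and both library types use it. Day 7 was covered by 3 TELP libraries labelled T18, N9_ss and N9, terms that the labels do not spell out, and by 1 standard library. Day 0 was covered by 1 TELP library labelled N9 and 1 standard library. Before day 0 all cells had 3 days of BMP7 in growth medium with Fetalclone III serum. From day 0 they were induced with DEX, IBMX, insulin, Rosi and T3, and later kept with insulin, Rosi and T3 until day 7, so the day 7 libraries differ from those of day 0 in time and in all of these agents together. The standard libraries were made by a sequencing company from RNA bound to oligo(dT) beads. Nothing in the labels says that libraries of the same day came from separate cultures.

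Most mitochondrial proteins are encoded in the nucleus, made in the cytosol and imported. Precursors cross the outer membrane through the TOM complex. From there the SAM complex inserts outer membrane barrel proteins, the MIA relay oxidises small proteins of the intermembrane space, the small TIM chaperones escort carrier proteins to the TIM22 complex, and the TIM23 complex with its PAM motor moves precursors into the matrix. There the processing peptidase removes the targeting sequence and the chaperonin formed by Hspd1 and Hspe1 folds the product. Brown and white adipocytes are known to gain mitochondria as they differentiate.

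Promoter windows from RefSeq, on the GRCm38.p6 build, are shown for 4 members around which the results turn. Each window holds 250 bases before and 50 after a gene's start, and 35 of the 40 members matched the table, with 38 windows. Grpel1 had the highest day difference, Hspe1 shares its window with Hspd1 and had an unlike difference between library types, Timm23 encodes the channel of the inner membrane, and Tomm20 differed little between the days. Capitals mark matches on either strand to CCGGAAG (an ETS motif), AAGGTCA (estrogen-related receptor) or GAANNTTC (heat shock element). Also searched were GCGCATGCG (NRF1) and TGATGCAAT (a composite of ATF4 and CHOP), which none of the 4 windows holds. The windows lie at chr5:36464935-36465234, plus strand (Grpel1), chr1:55087898-55088197, plus strand (Hspe1), chr14:32201842-32202141, minus strand (Timm23) and chr8:126945872-126946171, minus strand (Tomm20).
Grpel1: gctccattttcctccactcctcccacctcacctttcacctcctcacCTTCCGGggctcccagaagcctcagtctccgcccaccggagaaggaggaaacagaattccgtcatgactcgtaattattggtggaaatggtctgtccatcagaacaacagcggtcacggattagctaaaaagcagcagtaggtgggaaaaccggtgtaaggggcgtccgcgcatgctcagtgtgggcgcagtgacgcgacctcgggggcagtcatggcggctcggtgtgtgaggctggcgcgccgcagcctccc
Hspe1: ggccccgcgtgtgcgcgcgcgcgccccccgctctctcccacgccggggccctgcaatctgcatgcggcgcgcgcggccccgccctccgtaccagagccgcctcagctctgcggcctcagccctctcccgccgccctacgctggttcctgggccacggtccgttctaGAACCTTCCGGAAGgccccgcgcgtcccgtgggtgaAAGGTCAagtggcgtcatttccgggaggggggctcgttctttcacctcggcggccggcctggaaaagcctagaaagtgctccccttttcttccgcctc
Timm23: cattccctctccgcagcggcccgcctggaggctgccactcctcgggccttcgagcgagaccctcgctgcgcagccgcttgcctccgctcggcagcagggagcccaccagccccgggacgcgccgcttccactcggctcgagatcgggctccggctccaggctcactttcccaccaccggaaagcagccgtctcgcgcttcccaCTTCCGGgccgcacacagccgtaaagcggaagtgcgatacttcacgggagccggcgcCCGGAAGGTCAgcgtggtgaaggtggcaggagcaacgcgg
Tomm20: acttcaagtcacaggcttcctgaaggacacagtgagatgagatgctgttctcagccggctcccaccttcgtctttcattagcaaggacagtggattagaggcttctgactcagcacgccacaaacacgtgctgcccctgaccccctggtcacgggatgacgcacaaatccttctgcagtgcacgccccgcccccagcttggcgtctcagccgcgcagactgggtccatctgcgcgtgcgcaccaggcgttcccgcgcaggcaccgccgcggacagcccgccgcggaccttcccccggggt

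The Hspe1 window shares 285 bases with a window of Hspd1, chr1:55087883-55088182 on the minus strand, so both genes are read from these letters in opposite directions. In it a heat shock element overlaps a pair of ETS matches that themselves overlap, and an estrogen-related receptor match follows. The Timm23 window holds an ETS match before the start and another after it that runs into an estrogen-related receptor match. In the Grpel1 window the match is a single ETS motif, and the Tomm20 window holds none of the 5 strings of letters searched. Other forms of these motifs were not searched, so a lack of match does not show that a motif is absent. Over all member windows the ETS letters were in 17 of 38 (44.7%), against 18.3% of the windows of the genes kept in the day comparison and 8.86% of all windows in the table. The windows of the members called higher at day 7 in both library types, as described below, held them in 5 of 15. The estrogen-related receptor letters were in 5 member windows (13.2%), those of Hspd1, Hspe1, Timm23, Timm44 and Timm8b, against 3.03% of windows of the genes kept and 4.72% of all windows. The heat shock element was in 3 (7.89%), of Hspd1, Hspe1 and Timm9, against 5.73% of windows of the genes kept and 7.86% of all windows. The NRF1 letters were in 1 (2.63%), of Timm13, against 3.89% and 1.75%, and the ATF4 and CHOP composite was in 0, against 0.111% and 0.192%. These are matches of letters and not sites shown to be bound, and the Hspd1 and Hspe1 windows are not independent of each other. Median GC content was 60.0% in the member windows and 61.3% in those of the genes kept.

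Values are RPKM as deposited, by name reads per kilobase of gene model and 1000000 reads. In the depth estimate given below, low values of short genes fitted best with 200 to 204 bases deducted from gene length. Such a deduction raises short genes relative to long ones, and this was not corrected. Levels of different genes are thus set side by side only as deposited, and ratios between genes also differed with library type, as given below. Differences are on the log2(RPKM + 1) scale, which understates those of low genes. A gene was kept where its mean reached 1 RPKM over the libraries compared, and called higher or lower at an absolute difference of at least 1. With 1 library per group there is no replicate error, so 2 calls in the same direction, 1 per library type, show only that both methods gave a difference of that size. Of the 40 members 37 were kept. Tomm20l, a paralogue of Tomm20, was listed at 0 in all 6 libraries. Timm8a2 was listed at 0 in all but N9 at day 0, where it had 0.0620 RPKM, and Tomm6os stayed between 0.0823 RPKM in T18 and 0.797 in N9 at day 0.

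The libraries differ in depth and makeup. Depth estimated from the steps between low values, in units of 1000000 fragments, was 4.77 in T18, 5.76 in N9_ss, 5.50 in N9 of day 7, 22.6 in N9 of day 0, 14.1 in standard day 7 and 14.4 in standard day 0, and rests on few genes. The 10 highest genes took 79.8% of all RPKM in T18, 31.6% in N9_ss and 32.8% in N9 at day 7, against 15.2% in N9 at day 0, and 9.80% in the standard library of day 7 against 7.56% in that of day 0. T18 listed 6797 genes at 1 RPKM or more, against 10306 to 11306 in the other 5 libraries. N9_ss and N9 of day 7 had the same ratio in 3044 of 3609 low genes (84.3%), against 5.06% to 10.6% for 3 other pairs of libraries, so they were not taken as replicates. Members had between 36.4 and 3310 reads per kilobase outside T18, and 5 of 37 had fewer than 10 in T18.

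All 8 adipocyte markers (Pparg, Cebpa, Fabp4, Adipoq, Plin1, Cidec, Lipe and Slc2a4) were called higher at day 7 in both library types. Their summed level was 4622 RPKM in T18, 30930 in N9_ss and 30463 in N9 at day 7, against 31.8 in N9 at day 0, and 13357 in standard day 7 against 40.6 in standard day 0. The 6 preadipocyte markers together stood at 9.25, 23.7 and 23.2 RPKM in T18, N9_ss and N9 of day 7, against 258 in N9 of day 0, and at 150 in standard day 7 against 245 in standard day 0. Of these, Sox9, Gata2 and Dlk1 were called lower in both types. Of the other cell type markers Runx2 (osteoblast), Col2a1 (chondrocyte), Acta1 (muscle) and Tek (endothelial) were called lower at day 7 in both types, and Cd68 (macrophage) was called higher in TELP N9 alone, by 2.00. Summed macrophage, osteoblast, chondrocyte, muscle and endothelial markers ranged from 0 to 36.6 RPKM over all lists and libraries. In N9 at day 7, 5 of 6 macrophage, 3 of 5 osteoblast, 2 of 3 chondrocyte, 3 of 4 muscle and 4 of 4 endothelial markers were listed at 0. In the same order these numbers were 2, 3, 0, 3 and 1 in standard day 7, and 1, 1, 0, 1 and 0 in N9 of day 0. The last 2 libraries were estimated to be deeper, and a listing at 0 in a shallow library does not show absence. The labels give mesenchymal stem cell as the cell type at day 7 too, where the adipocyte markers were high. In bulk RNA a change in the number of cells of a type and a change of RNA per cell cannot be told apart, and the part of these markers in the member results was not tested.

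Many import and chaperone genes had higher levels at day 7 in N9 and in the standard library, with Grpel1 of the motor the highest difference in each, and none was called lower there. In both library types 14 of 37 members (37.8%) were called higher, where 7.23% of 11474 genes were called higher and 5.81% lower. In TELP N9 24 members were called higher, where 13.9% of 11360 genes were higher and 29.9% lower. In the standard libraries the 14 members were called higher, where 8.22% of 11312 genes were higher and 6.53% lower. The members' median difference was 1.31 in TELP N9 and 0.81 in the standard libraries, where the medians over all genes were -0.45 and -0.18. Relative to these medians the members lay 1.76 and 0.99 higher, and 35 of 37 members were above the median gene in each type. Scaling libraries by the median of ratios moved the all-gene medians to 0.00 in both types and the members' to 1.80 and 1.01, and upper quartile scaling left the members' at 1.29 and 0.89. With the median of ratios 52.1% of the called genes were higher in TELP N9, against 31.8% as deposited, and in the standard libraries 68.8% against 55.7%. Among genes called alike in both types that share was 68.6% with it and 55.4% as deposited.

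The third TELP library of day 7 did not give these calls as deposited. With T18 in place of N9, 0 members were called higher and 22 lower against N9 of day 0, where 2.54% of 10775 genes were higher and 86.8% lower. No member was then called higher in both types, where 1.77% of 11220 genes were. With T18 and the median of ratios together, chosen after seeing the data, 23 members were called higher and 0 lower, where 17.3% of 10178 genes were higher and 17.2% lower, and the median was 1.27 for members and -0.10 for all genes.

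**Figure D1:**
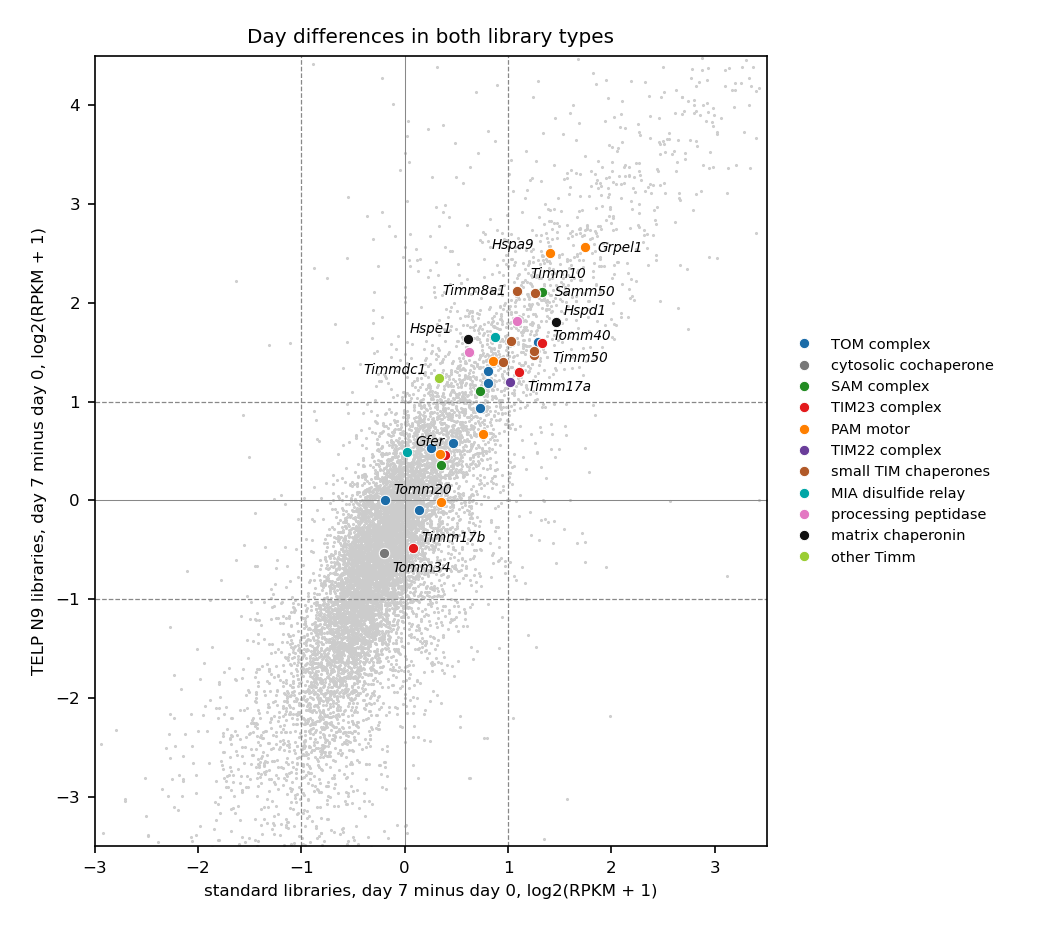
Difference of log2(RPKM + 1), day 7 minus day 0, in the standard libraries (x axis) and the TELP N9 libraries (y axis); coloured points are the 37 members by role, grey points the genes kept, and dashed lines mark an absolute difference of 1. All 14 members right of 1 are also above 1 in TELP N9, no member is under -1 on either axis, and 486 of 11474 genes lie outside the axes.

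The plot of both day differences places most members above the median gene in each type, though some run into the mass of genes. In TELP N9 Tomm34, at -0.53, and Timm17b, at -0.48, were below the all-gene median of -0.45. Of the members 32 of 37 had the larger difference in TELP N9. Another 10 members passed 1 in TELP N9 alone, and 13 passed it in neither type. Over all genes 13.9% were called higher in TELP N9 and 7.23% in both types. All-gene shares for TELP N9 alone, for neither type and for a larger difference in TELP N9 were not counted. For 28 of 37 members all of N9_ss, N9 and standard at day 7 were above both day 0 libraries. T18 was the lowest of the 6 libraries for 32 members, the exceptions being Tomm6, Tomm7, Timm13, Pam16 and Hspe1. These orders were counted for members only. Over all genes 83.4% were called lower in T18 than in N9 of day 7 as deposited, and 86.8% lower than in N9 of day 0. A limma fit of the 4 standard and N9 libraries with library type as a covariate, which has 1 residual degree of freedom and no measure of spread between cultures, called 0 of 37 members at an adjusted p of 0.05. Their adjusted p ran from 0.0972 for Grpel1 to 0.971 for Tomm22. At an unadjusted p under 0.05 it had 23 members and 3014 of 11474 genes. Over all genes it called 0.715% higher and 0.105% lower at day 7.

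**Figure D2:**
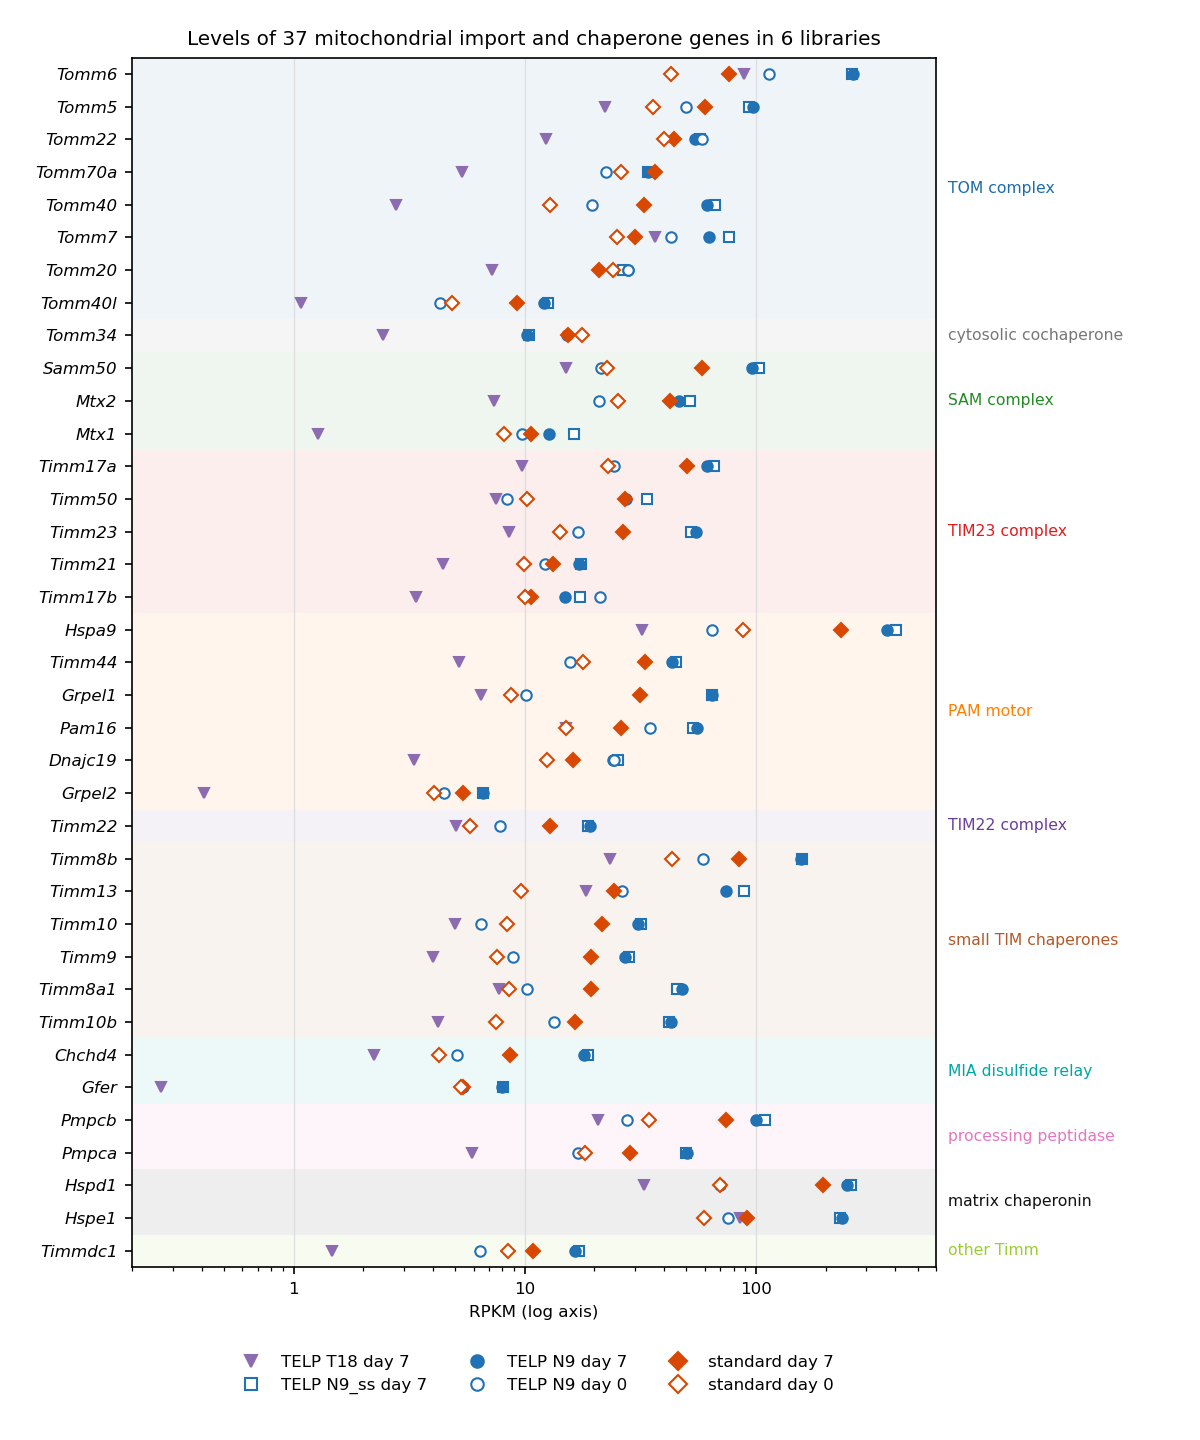
Level of each of the 37 members kept, in RPKM on a log axis, with 1 point per library, members grouped by role. Day 7 points of N9_ss, N9 and the standard library lie right of the day 0 points for 28 members, and T18 is the leftmost point for 32.

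At the outer membrane 1 of the 8 TOM members kept was called higher in both library types, with medians of 0.76 in TELP N9 and 0.60 in the standard libraries. It was Tomm40, the pore of the complex. Tomm40 was at 2.77 RPKM in T18, 66.5 in N9_ss and 61.1 in N9 at day 7, against 19.5 in N9 at day 0, and at 32.9 in the standard library of day 7 against 12.9 in that of day 0. T18 was far under the other 5 libraries, and the differences between the days were 1.60 in TELP N9 and 1.29 in the standard libraries. Tomm40l, a paralogue of Tomm40 of lower level, had 1.08 RPKM in T18, 12.6 in N9_ss and 12.1 in N9 of day 7 against 4.29 in N9 of day 0, while the standard libraries gave 9.26 at day 7 and 4.86 at day 0. Its differences of 1.31 in TELP N9 and 0.81 in the standard libraries passed 1 in the TELP type alone. The receptor Tomm20, which binds targeting sequences, was at 7.19 RPKM in T18, 26.6 in N9_ss and 27.8 in N9 at day 7, against 27.9 in N9 at day 0, and at 21.0 in the standard library of day 7 against 24.1 in that of day 0. Outside T18 the Tomm20 libraries overlap without order by day, with differences of -0.00 in TELP N9 and -0.19 in the standard libraries. Tomm22, the central receptor, had differences of -0.10 in TELP N9 and 0.14 in the standard libraries, and Tomm70a, the receptor for carrier precursors, of 0.58 in TELP N9 and 0.47 in the standard libraries.

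The small TOM subunits Tomm5, Tomm6 and Tomm7 are known from yeast to stabilise or regulate the complex. Of the TOM transcripts Tomm6 had the highest RPKM in all 6 libraries. Tomm6 was at 89.1 RPKM in T18, 259 in N9_ss and 262 in N9 at day 7, against 114 in N9 at day 0, and at 76.1 in the standard library of day 7 against 42.9 in that of day 0. Its TELP levels were above the standard ones of the same day, and T18 was above both standard libraries. The day differences of Tomm6 were 1.19 in TELP N9 and 0.81 in the standard libraries. Tomm7 reached 36.4, 76.3 and 62.6 RPKM in the day 7 libraries T18, N9_ss and N9 against 43.0 in N9 at day 0, and 30.0 in standard day 7 against 25 in standard day 0. T18 was above both standard libraries and below the other TELP ones here, and the day differences of Tomm7 were 0.53 in TELP N9 and 0.25 in the standard libraries. Tomm5 differed by 0.94 in TELP N9 and 0.73 in the standard libraries, under 1 in each. Tomm34, a cytosolic cochaperone that binds precursors, had the lowest difference of all members. It was at 2.44 RPKM in T18, 10.4 in N9_ss and 10.2 in N9 at day 7, against 15.2 in N9 at day 0, and at 15.3 in the standard library of day 7 against 17.7 in that of day 0. Tomm34 was lower at day 7 in each type, by amounts under 1, with differences of -0.53 in TELP N9 and -0.20 in the standard libraries. Tomm6 overlaps Tomm6os, Frs3 and Usp49 in the annotation and Tomm40l overlaps Apoa2 and Nr1i3, and as strand handling is not given, reads of such neighbours cannot be told apart.

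Of the SAM complex, Samm50, the barrel-shaped core that inserts other barrel proteins, was called higher in both types. Samm50 reached 15.0, 103 and 95.7 RPKM in the day 7 libraries T18, N9_ss and N9 against 21.4 in N9 at day 0, and 58.4 in standard day 7 against 22.7 in standard day 0. All day 7 libraries but T18 were above both of day 0, with differences of 2.11 in TELP N9 and 1.33 in the standard libraries. The metaxins, which flank Samm50 on the cytosolic side, did not pass in both types. Mtx2 was at 7.36 RPKM in T18, 51.7 in N9_ss and 46.3 in N9 at day 7, against 21.0 in N9 at day 0, and at 42.4 in the standard library of day 7 against 25.2 in that of day 0, with differences of 1.11 in TELP N9 and 0.73 in the standard libraries. Mtx1 had 1.27 RPKM in T18, 16.3 in N9_ss and 12.7 in N9 of day 7 against 9.68 in N9 of day 0, while the standard libraries gave 10.6 at day 7 and 8.11 at day 0, with differences of 0.36 in TELP N9 and 0.35 in the standard libraries.

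Of the 5 TIM23 members 2 were called higher in both types, Timm17a and Timm50, with medians of 1.30 in TELP N9 and 0.86 in the standard libraries. Timm50, the receptor that takes over precursors from TOM, was at 7.53 RPKM in T18, 33.6 in N9_ss and 27.4 in N9 at day 7, against 8.41 in N9 at day 0, and at 27 in the standard library of day 7 against 10.2 in that of day 0. Its differences were 1.59 in TELP N9 and 1.33 in the standard libraries, and the day 7 libraries other than T18 were close to each other. Timm23, the channel protein, had 8.50 RPKM in T18, 52.5 in N9_ss and 55.0 in N9 of day 7 against 16.9 in N9 of day 0, while the standard libraries gave 26.5 at day 7 and 14.2 at day 0. The N9 levels of Timm23 at day 7 were above the standard one, and its differences were 1.65 in TELP N9 and 0.86 in the standard libraries. Timm21, known from yeast to link TIM23 to TOM, had differences of 0.46 in TELP N9 and 0.39 in the standard libraries.

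The paralogues Timm17a and Timm17b, alternative partners of Timm23 in the channel, differed from each other. Timm17a was at 9.71 RPKM in T18, 65.5 in N9_ss and 61.1 in N9 at day 7, against 24.2 in N9 at day 0, and at 50.5 in the standard library of day 7 against 22.8 in that of day 0. Each day 7 library other than T18 was above both day 0 libraries, with differences of 1.30 in TELP N9 and 1.11 in the standard libraries. Timm17b reached 3.37, 17.3 and 14.9 RPKM in the day 7 libraries T18, N9_ss and N9 against 21.1 in N9 at day 0, and 10.6 in standard day 7 against 10.0 in standard day 0. N9 at day 0 was the highest Timm17b library and the standard libraries of both days were close, with differences of -0.48 in TELP N9 and 0.08 in the standard libraries. The ratio of Timm17a to Timm17b RPKM, which no scaling of libraries alters, was 2.88 in T18, 3.79 in N9_ss and 4.10 in N9 at day 7, against 1.15 in N9 at day 0. In the standard libraries it was 4.74 at day 7 against 2.28 at day 0.

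The PAM motor pulls precursors into the matrix, and it held the 2 highest day differences in TELP N9. Hspa9, the matrix Hsp70 also called mortalin, was at 32.0 RPKM in T18, 402 in N9_ss and 370 in N9 at day 7, against 64.6 in N9 at day 0, and at 234 in the standard library of day 7 against 87.6 in that of day 0. Hspa9 had the highest RPKM of the members in N9_ss, in both standard libraries and in N9 of day 7. Its differences were 2.50 in TELP N9 and 1.41 in the standard libraries. Grpel1, the exchange factor that frees Hspa9 from ADP, had 6.48 RPKM in T18, 64.5 in N9_ss and 64.4 in N9 of day 7 against 10.1 in N9 of day 0, while the standard libraries gave 31.5 at day 7 and 8.71 at day 0. The N9 levels of Grpel1 at day 7 were above the standard one, which was in turn above both of day 0. Its differences of 2.56 in TELP N9 and 1.74 in the standard libraries were the highest among members in each type. Grpel2, its paralogue, reached 0.409, 6.57 and 6.61 RPKM in the day 7 libraries T18, N9_ss and N9 against 4.49 in N9 at day 0, and 5.39 in standard day 7 against 4.04 in standard day 0. Grpel2 was the lowest of the 37 members in N9_ss, N9 of day 7 and both standard libraries, and differed by 0.47 in TELP N9 and 0.34 in the standard libraries.

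The ratio of Grpel1 to Grpel2 RPKM was 15.8 in T18, 9.82 in N9_ss and 9.73 in N9 at day 7, against 2.25 in N9 at day 0. It was 5.84 in standard day 7 against 2.16 in standard day 0, so both types placed the day 7 ratio above that of day 0. In T18 Grpel2 had about 1.95 reads per kilobase, too few for that ratio to be read closely. Timm44, which tethers Hspa9 to the channel, was at 5.18 RPKM in T18, 45.0 in N9_ss and 43.3 in N9 at day 7, against 15.6 in N9 at day 0, and at 33.0 in the standard library of day 7 against 17.9 in that of day 0. Its differences of 1.41 in TELP N9 and 0.85 in the standard libraries passed 1 in the TELP type alone. The J-protein Dnajc19 and its partner Pam16 differed between the days by less than 1. For Dnajc19 the differences were -0.02 in TELP N9 and 0.35 in the standard libraries, and for Pam16 they were 0.67 in TELP N9 and 0.76 in the standard libraries. Pam16 had 15.1 RPKM in T18, 53.4 in N9_ss and 55.8 in N9 of day 7 against 34.7 in N9 of day 0, while the standard libraries gave 26.1 at day 7 and 15.0 at day 0. For this gene the TELP levels other than T18 were above the standard level of either day.

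The small TIM chaperones were the group with the most calls, 5 of 6 members kept in both types and 6 of 6 in TELP N9. Their medians were 1.56 in TELP N9 and 1.17 in the standard libraries. Timm9 and Timm10 form the hexamer that carries precursors through the intermembrane space. Timm9 was at 4.01 RPKM in T18, 28.1 in N9_ss and 27 in N9 at day 7, against 8.86 in N9 at day 0, and at 19.4 in the standard library of day 7 against 7.60 in that of day 0. Timm10 reached 4.99, 31.9 and 31.0 RPKM in the day 7 libraries T18, N9_ss and N9 against 6.48 in N9 at day 0, and 21.5 in standard day 7 against 8.41 in standard day 0. Both genes were above their day 0 levels in every day 7 library but T18, Timm9 by 1.51 in TELP N9 and 1.25 in the standard libraries and Timm10 by 2.10 in TELP N9 and 1.26 in the standard libraries. Timm10b, a small TIM bound to the TIM22 complex, had 4.23 RPKM in T18, 42.0 in N9_ss and 42.8 in N9 of day 7 against 13.4 in N9 of day 0, while the standard libraries gave 16.4 at day 7 and 7.53 at day 0. It differed by 1.61 in TELP N9 and 1.03 in the standard libraries, and its N9 levels were above the standard one at day 7.

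Timm8a1 and Timm13 form the other hexamer, and loss of the human counterpart of Timm8a1 causes a deafness and dystonia syndrome. Timm8a1 was at 7.71 RPKM in T18, 45.5 in N9_ss and 47.7 in N9 at day 7, against 10.2 in N9 at day 0, and at 19.3 in the standard library of day 7 against 8.51 in that of day 0. Timm13 had 18.3 RPKM in T18, 89.0 in N9_ss and 74.3 in N9 of day 7 against 26.3 in N9 of day 0, while the standard libraries gave 24.4 at day 7 and 9.65 at day 0. For Timm13 the day 0 level in N9 was above the standard day 7 level, so its libraries are ordered by day only within a library type. The differences were 2.12 in TELP N9 and 1.09 in the standard libraries for Timm8a1, and 1.47 in TELP N9 and 1.25 in the standard libraries for Timm13. Timm8b, at the highest level of this group, had differences of 1.40 in TELP N9 and 0.95 in the standard libraries, the second just under the call. Timm22, the channel for carrier proteins, reached 5.02, 18.7 and 19.2 RPKM in the day 7 libraries T18, N9_ss and N9 against 7.79 in N9 at day 0, and 12.8 in standard day 7 against 5.80 in standard day 0. It was called higher in both types, with differences of 1.20 in TELP N9 and 1.02 in the standard libraries, the smallest of the 14. Timm10b overlaps Dnhd1, Timm13 overlaps Tmprss9 and Timm9 overlaps Tomm20l in the annotation. In other groups Grpel1 overlaps Tada2b, Pam16 overlaps Glis2, Dnajc19 overlaps Fxr1, Pmpca overlaps Inpp5e and Timm21 overlaps Fbxo15. Timm8b overlaps Nkapd1, and several other members overlap only genes with Gm or LOC symbols. Reads of these neighbours cannot be told apart either.

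Neither gene of the MIA relay was called in both types. Chchd4, the oxidoreductase that folds small TIMs and other proteins, differed by 1.65 in TELP N9 and 0.87 in the standard libraries, and Gfer, the oxidase that recycles it, by 0.49 in TELP N9 and 0.02 in the standard libraries. The processing peptidase has the subunits Pmpca and Pmpcb. Pmpcb, which carries the catalytic site, was at 20.8 RPKM in T18, 109 in N9_ss and 100 in N9 at day 7, against 27.6 in N9 at day 0, and at 74.3 in the standard library of day 7 against 34.3 in that of day 0. Pmpca reached 5.88, 50.0 and 50.2 RPKM in the day 7 libraries T18, N9_ss and N9 against 17.0 in N9 at day 0, and 28.4 in standard day 7 against 18.2 in standard day 0. Both were above their day 0 levels in N9_ss, N9 and the standard library of day 7, Pmpcb by 1.82 in TELP N9 and 1.09 in the standard libraries and Pmpca by 1.50 in TELP N9 and 0.62 in the standard libraries. The call in both types held for Pmpcb alone. The ratio of Pmpcb to Pmpca RPKM was 3.54, 2.18 and 1.99 in T18, N9_ss and N9 of day 7 against 1.62 in N9 of day 0, and 2.61 in standard day 7 against 1.89 in standard day 0. Timmdc1, the complex I assembly factor, differed by 1.24 in TELP N9 and 0.33 in the standard libraries.

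Hspd1 (Hsp60) and Hspe1 (Hsp10) form the chaperonin and its lid. Hspd1 was at 32.9 RPKM in T18, 257 in N9_ss and 248 in N9 at day 7, against 70.1 in N9 at day 0, and at 195 in the standard library of day 7 against 69.9 in that of day 0. Hspe1 had 85.6 RPKM in T18, 230 in N9_ss and 236 in N9 of day 7 against 75.8 in N9 of day 0, while the standard libraries gave 91.2 at day 7 and 59.6 at day 0. Hspd1 was called higher in both types with differences of 1.81 in TELP N9 and 1.46 in the standard libraries, while Hspe1 differed by 1.63 in TELP N9 and 0.61 in the standard libraries. At day 7 Hspe1 was higher by 1.36 in TELP N9 than in the standard library on the log2 scale and Hspd1 by 0.35, while at day 0 these values were 0.34 and 0.00. Their ratio, Hspd1 over Hspe1, was 0.384 in T18, 1.12 in N9_ss and 1.05 in N9 at day 7 against 0.924 in N9 at day 0. It was 2.13 in standard day 7 against 1.17 in standard day 0. Hspd1 and Hspe1 overlap in the RefSeq annotation, so without strand their reads cannot be told apart where they do.

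**Figure D3:**
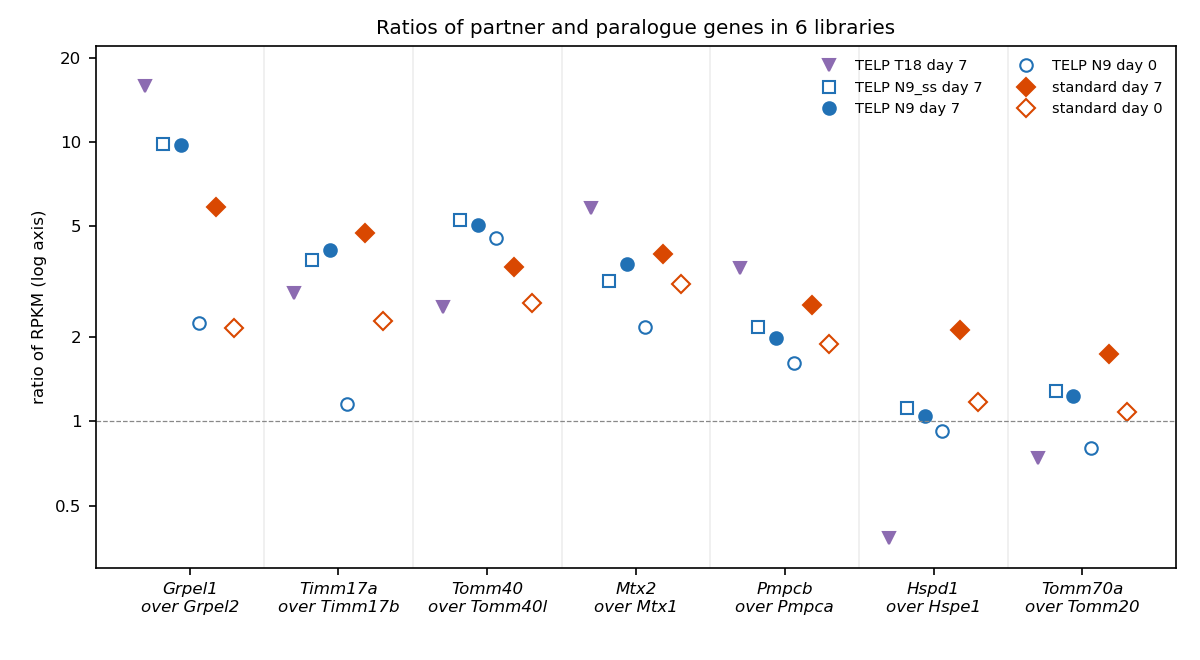
Ratio of RPKM between paralogues or partner subunits in each of the 6 libraries, on a log axis, with 1 point per library. Grpel1 over Grpel2 and Timm17a over Timm17b are higher at day 7 than at day 0 in both library types, and Hspd1 over Hspe1 is highest in standard day 7 and lowest in T18.

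Among the remaining pairs in the plot of ratios, Tomm40 over Tomm40l was 2.56, 5.25 and 5.05 in T18, N9_ss and N9 of day 7 against 4.54 in N9 of day 0, and 3.56 in standard day 7 against 2.65 in standard day 0. Mtx2 over Mtx1 was 5.78, 3.17 and 3.65 in the same TELP libraries of day 7 against 2.17 in N9 of day 0, and 3.98 in standard day 7 against 3.11 in standard day 0. In N9 and in the standard libraries both ratios were higher at day 7, by less than those of Grpel1 and Timm17a, while T18 had the lowest ratio of Tomm40 and the highest of Mtx2. Tomm70a over Tomm20, a pair of receptors, was 0.742, 1.29 and 1.23 in T18, N9_ss and N9 of day 7 against 0.805 in N9 of day 0, and 1.74 in standard day 7 against 1.08 in standard day 0. Summed over all 40 members the level was 515 RPKM in T18, 2694 in N9_ss and 2591 in N9 at day 7, against 983 in N9 at day 0, and 1523 in standard day 7 against 789 in standard day 0. Hspa9, Hspd1 and Hspe1 made up 29.2%, 33.0% and 33.0% of it in T18, N9_ss and N9 of day 7 against 21.4% in N9 of day 0, and 34.1% in standard day 7 against 27.5% in standard day 0. Tomm6 led in T18 and in N9 of day 0, and Hspa9 in the other 4 libraries.

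The library comparisons at a fixed day set TELP N9 beside the standard library. The labels do not say whether both came from the same culture, so method and culture cannot be told apart. At day 7 the cell markers differed as well. Summed preadipocyte markers were at 23.2 RPKM in N9 and 150 in the standard library, and adipocyte markers at 30463 and 13357. At day 0, 4 members were called higher in TELP N9 than in the standard library, Tomm6, Timm13, Pam16 and Timm17b, and 0 lower, where 2.20% of 11277 genes were called higher and 0.718% lower. The members' median was 0.20 and that of all genes 0.01, or 0.32 and 0.12 with upper quartile scaling. Tomm6 had the highest difference, 1.39, and Hspa9 the lowest, -0.43. At day 7, 9 members passed the call upward in TELP N9 and 0 downward, where 7.51% of 11044 genes passed it upward and 17.0% downward. Without regard to size, N9 was above the standard library for 35 of 37 members at day 7 and for 25 at day 0. This order was not counted over all genes. The 9 members called higher at day 7 were Tomm6, Timm13, Hspe1, Timm10b, Timm8a1, Pam16, Tomm7, Timm23 and Grpel1. Chchd4 was just under the call at 1.00. The median was 0.55 for members and -0.23 for all genes, a distance of 0.78, and scaling by the median of ratios gave 0.79 and 0.00. With that scaling 47.8% of called genes were higher, against 30.7% without it. Tomm6, at 1.77, was again the highest, and Tomm34, at -0.53, the lowest. Tomm6, Timm13 and Pam16 were the members called higher in TELP N9 at both days.

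**Figure D4:**
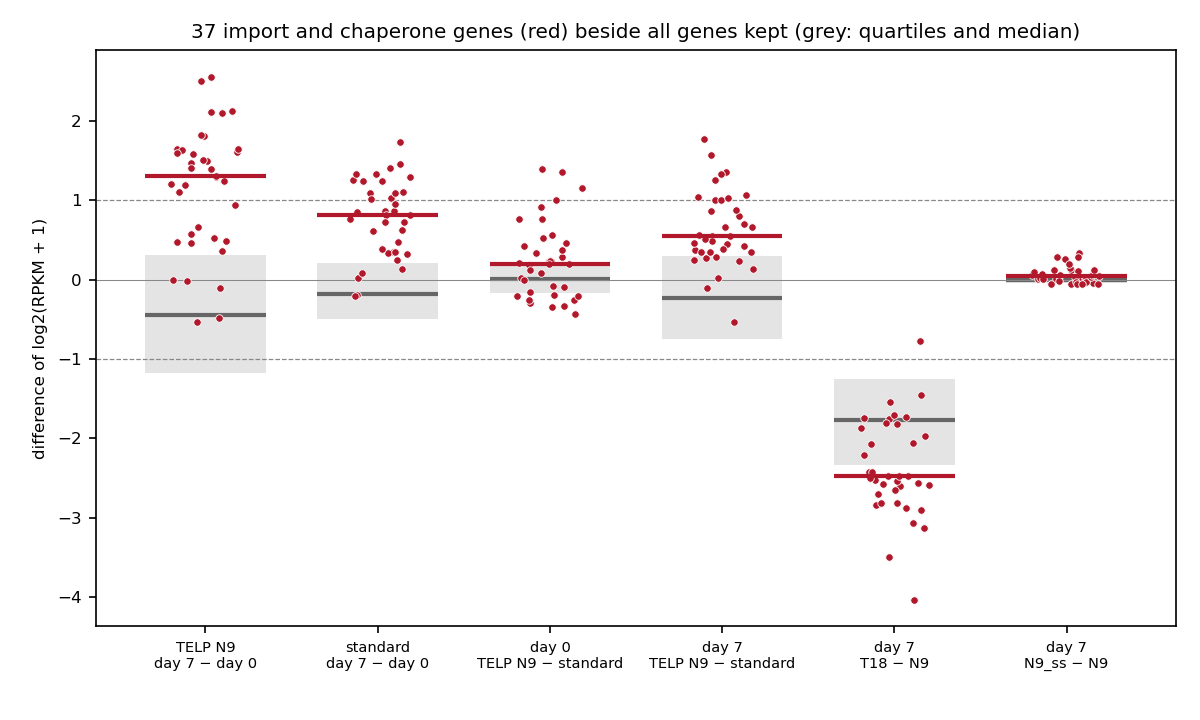
Differences of log2(RPKM + 1) of the 37 members in each of the 6 comparisons, 1 point per member, with the members' median and the median of all genes kept drawn as lines. In each day comparison 35 of the 37 members lie above the all-gene median, T18 minus N9 is below 0 for every member under the deposited scaling but above 0 for 13 members after scaling by the median of ratios, and N9_ss minus N9 is near 0.

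T18 gave lower levels than N9 for every member under the deposited scaling, but 13 members were higher after scaling by the median of ratios. As deposited, 36 of 37 members were called lower and 0 higher, where 83.4% of 9753 genes were called lower and 0.841% higher. Tomm7, at -0.77, was the exception, and Tomm40, at -4.04, had the lowest difference. The members' median was -2.48 against -1.77 for all genes, and 7 of 37 were above the median gene. Upper quartile scaling made these medians -0.36 and -0.02. With the median of ratios they became -0.44 and -0.09, and 8 members were called lower and 1, Tomm7, higher. Over all genes 1288 were then called lower and 980 higher, though their share of the genes kept under that scaling was not counted. Of the called genes 43.2% were higher, against 0.999% as deposited. The large share of T18 RPKM in few genes, given above, goes along with this result, and its part was not tested. N9_ss and N9 of day 7 differed little: 0 of 37 members were called in either direction, where 0.0194% of 10334 genes were higher and 0.00968% lower. Their member differences ran from -0.06 for Pam16 to 0.34 for Mtx1, with a median of 0.05.

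Related gene lists, picked by name, give the setting of these members. Over all genes 7.23% were called higher in both types and 5.81% lower. Of 18 other genes of import, membrane insertion and inner membrane shape, 5 were called higher in both types and 0 lower, with medians of 0.96 in TELP N9 and 0.76 in the standard libraries. The highest were Dnajc15, a relative of Dnajc19, with differences of 2.90 in TELP N9 and 2.27 in the standard libraries, and Immt, the core of the cristae junction complex, with 1.94 and 1.37. Romo1, a small inner membrane protein, had 1.52 and 1.17. Of 12 mitochondrial proteases and other matrix chaperones 3 were called higher and 0 lower, with medians of 1.10 in TELP N9 and 0.66 in the standard libraries. They were the J-protein Dnaja3 at 2.28 and 1.22, the protease subunit Afg3l2 at 1.90 and 1.08, and Trap1, the mitochondrial Hsp90, at 1.81 and 1.03.

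Chaperones outside the mitochondria were counted in the same way. Of 19 cytosolic chaperones 0 were called in both types in either direction. In TELP N9 3 were called lower, where 29.9% of all genes were, and in the standard libraries 0 were called. Their medians of -0.48 in TELP N9 and -0.19 in the standard libraries were near those of all genes, -0.45 and -0.18. Of 11 chaperones of the endoplasmic reticulum 1 was called higher in both types and 0 lower, where 7.23% of all genes were higher and 5.81% lower. It was the J-protein Dnajb9, at 3.13 in TELP N9 and 2.23 in the standard libraries. The medians of this list were -0.27 and 0.13. In TELP N9 alone Pdia3 was called lower, at -1.32, and Canx was called higher, at 124 RPKM in N9 of day 7 but listed at 0 in N9 of day 0, beside 169 in standard day 7 and 168 in standard day 0. The difference between these lists and the import genes was not tested.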

How the data were processed

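RNA of 6 libraries was used and the 17 chromatin samples were left aside. For each gene symbol the authors deposited RPKM, 1 column per library, and Bowtie2, TopHat, Cufflinks and the mm9 build are named per the submitters' processing notes. The sources used here do not state versions, settings, annotation, strand handling or the read total. No genome of that build was used, so promoter windows and overlapping genes come from RefSeq on GRCm38.p6, matched by symbol.

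From the deposited RPKM, differences of log2(RPKM + 1) were taken among genes whose compared libraries averaged 1 RPKM or more, and called at an absolute difference of 1. No test has replicates. As an alternative, limma 3.58.1 in R 4.3.3 fitted day with library type as covariate, with p-values adjusted by Benjamini and Hochberg over all genes kept; it was tested on simulated data. Depth was estimated from the steps of low values in short genes and is approximate, since 25 to 64 low short genes per library lay at the common depth, so no whole reads were recovered and no count test was run. An exact 0 can be a failed estimate and is given as listed at 0.

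Values in all libraries are printed for members called in both library types, members called between library types at both days, the main chaperones, receptors and channels, the paralogue pairs and the extremes of each comparison. Of other lists up to 3 members called in both types are named, those with the largest mean absolute difference. The members and lists were chosen with earlier results of these data known. Alternatives were an offset of 0.1 RPKM, a minimum of 5 RPKM or none, median of ratios and upper quartile scaling, T18 in place of N9, and limma. T18 with the median of ratios was added after seeing the data.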

Additional observations from a re-analysis of the deposited data

Results flagged for a closer look

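In 3 members the day differences of log2(RPKM + 1) had opposite signs in the library types. Dnajc19, the J-protein of the PAM motor, differed by -0.02 in TELP N9 and by 0.35 in the standard libraries. Timm17b, of the TIM23 complex, differed by -0.48 in TELP N9 and by 0.08 in the standard libraries. Tomm22, the central TOM receptor, differed by -0.10 in TELP N9 and by 0.14 in the standard libraries. With libraries scaled by the median of ratios none of these had opposite signs: the TELP N9 differences became 0.48 for Dnajc19, 0.01 for Timm17b and 0.40 for Tomm22, beside 0.53, 0.26 and 0.34 in the standard libraries. None of these values reached the size of a call, and the differences between library types were not tested, since each group holds 1 library.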

How the results depend on the processing

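No paired analysis was possible because no RNA groups share replicate numbers, each holding 1 library, and the numbers that some labels share belong to chromatin samples not analysed here. The limma fit pairs the days by library type instead. Under the offset of 0.1 RPKM 0 of 222 member values crossed the size of a call or changed sign. Values did move, by up to 1.64 for Gfer in T18 minus N9. The filter alternatives only drop or add genes, so they could not change the value of a member kept. Of 444 values under other scalings, 15 outside T18 minus N9 crossed the size of a call and another 13, none of them called, changed sign. In T18 minus N9, 34 lost the call while keeping their sign and another 27 changed sign. Those that changed sign lost the call too, apart from Tomm7, which had no call as deposited and was called higher under both scalings. With T18 in place of N9 the TELP day comparison called 0 members higher and 22 lower, and both types together called 0 higher, while adding the median of ratios gave 23 higher and 0 lower. The limma fit called 0 members higher at an adjusted p of 0.05 and 23 members at an unadjusted p under 0.05. Members called in T18 minus N9 were 1 higher and 8 lower with the median of ratios, and 1 higher and 4 lower with the upper quartile. Over all genes 980 were higher and 1288 lower with the median of ratios, and 1095 higher and 1154 lower with the upper quartile.

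Signs of T18 minus N9 reversed under scaling for these members, each given first with the median of ratios and then with the upper quartile. Tomm7 was at 1.39 and 1.47, Hspe1 at 0.73 and 0.82, Tomm6 at 0.64 and 0.73, and Timm50 at 0.32 and 0.40. Pam16 was at 0.30 and 0.38, Timm22 at 0.24 and 0.32, Tomm20 at 0.23 and 0.31, and Timm21 at 0.22 and 0.30. Timm13 was at 0.17 and 0.26, Tomm34 at 0.11 and 0.18, Tomm5 at 0.08 and 0.17, Tomm22 at 0.05 and 0.13, and Timm17b at 0.05 and 0.12. Pmpcb reversed with the upper quartile alone, to 0.02. The cause was not tested. With few reads in T18, members low there, such as Gfer and Grpel2, carry large counting error.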

Other observations

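Other mitochondrial lists, also chosen with earlier results known, were described in the same way. Beside them, 7.23% of all genes were called higher in both types and 5.81% lower. Of 77 mitochondrial ribosomal protein genes 12 were called higher at day 7 in both library types and 0 lower, with median differences of 0.99 in TELP N9 and 0.58 in the standard libraries. The highest were Mrpl12 at 3.38 and 2.17, Mrpl38 at 2.49 and 1.50, and Mrpl20 at 2.02 and 1.66. Of 37 genes of respiratory complex I, the first enzyme of the respiratory chain, 23 were called higher and 0 lower, with medians of 1.68 in TELP N9 and 1.21 in the standard libraries. The highest mean differences were those of Ndufs5 at 4.09 and 1.24, Ndufv1 at 3.25 and 1.86, and Ndufab1 at 3.18 and 1.90.

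Of 9 regulators of mitochondrial biogenesis 2 were called higher in both types and 0 lower, with medians of -0.32 in TELP N9 and -0.28 in the standard libraries. Ppargc1b, a coactivator of estrogen-related receptors, differed by 3.87 in TELP N9 and 2.46 in the standard libraries, and Esrra, one such receptor, by 2.94 and 1.40. Of 5 regulators of the mitochondrial stress response 1 was called higher, Cebpb, also an adipogenic factor, at 2.74 and 1.24, with list medians of 0.53 and 0.22. Over all genes 7.23% were called higher in both types. Romo1, a small inner membrane protein, was at 387 RPKM in N9 and 39.7 in the standard library at day 7, and at 134 in N9 and 17.1 in the standard library at day 0. Its TELP N9 levels were thus higher by 3.25 at day 7 and 2.90 at day 0 on the log2 scale.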
